A study of Mus musculus with 22 samples.

Results

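The genes described here make, break down, carry and sense retinoic acid: Aldh1a2, Aldh1a3, Cyp26a1, Cyp26b1, Cyp26c1, Crabp1, Crabp2, Rara, Rarb and Rarg. They were chosen by name and by their role in the pathway, and all 10 were found among the 37680 mouse gene IDs of the table. Each passed the filter on low counts in every comparison. Retinoic acid is made from vitamin A, and its last step is carried out by retinaldehyde dehydrogenases such as Aldh1a2 and Aldh1a3. Cytochrome P450 enzymes of the Cyp26 family break it down, Crabp proteins bind it in the cytoplasm, and Rar receptors, paired with Rxr receptors, act on DNA when it is bound. In the gastrulating and somite-stage mouse embryo, Aldh1a2 is the main source of retinoic acid in the mesoderm of the trunk, and Cyp26 enzymes keep other regions free of it.

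RNA was sequenced from 22 pools of whole C57BL/6 mouse embryos in 8 groups. In the Oct4 line (ROSA26tg/+; Oct4tg/+) the groups were 3 induced and 3 control pools at embryonic day 7.5 (E7.5), and 3 induced and 3 control pools at E9.5. In the Nanog line (ROSA26tg/+; Nanogtg/+) they were 3 induced and 2 control pools at each stage. Induced embryos at E7.5 came from mothers injected with doxycycline into the abdomen at E4.5 and then given it in drinking water. Induced embryos at E9.5 came from mothers given it in the water from E6.5, and control mothers received none. The number of embryos per pool was 8 to 12 at the earlier stage and 3 at the later one. Controls carried the same transgenes as induced embryos, no group had doxycycline without a transgene, and which cells responded to doxycycline was not given. The labels do not say whether pools came from separate litters, so p-values measure the spread between these pools.

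Libraries held 4.72 to 42.3 M counts (M, 1000000). Pou5f1, the gene that encodes Oct4, averaged 553 ± 67.4 CPM (counts scaled to a library total of 1000000) in induced and 218 ± 21.3 CPM in control Oct4 E7.5 pools (SD, n = 3 each), and 266 ± 14.5 CPM in induced and 0.87 ± 0.436 CPM in control Oct4 E9.5 pools (SD, n = 3 each). Nanog averaged 350 ± 3.32 CPM in induced (SD, n = 3) and 2.2 ± 0.207 CPM in control Nanog E9.5 pools (SD, n = 2). At E7.5 Nanog averaged 91.6 ± 33.3 CPM in induced (SD, n = 3) and 20 ± 3.94 CPM in control pools of its line (SD, n = 2), with an adjusted p of 0.0752. Each factor was also higher at E7.5 in induced pools of the other line. Pou5f1 averaged 525 ± 60.9 CPM in induced (SD, n = 3) and 234 ± 15.7 CPM in control Nanog pools (SD, n = 2, edgeR adjusted p 0.000955). Nanog averaged 27.7 ± 5.44 CPM in induced and 18.4 ± 1.78 CPM in control Oct4 pools (SD, n = 3 each, edgeR adjusted p 0.0272). At E9.5 the factor of the other line overlapped between induced and control pools. The libraries of the Nanog line at E7.5 differed in kind: gene models under 80 nt took 0.575 to 1.13 CPM in induced pools and 31.3 to 36.8 CPM in control pools. Mitochondrial genes took 5.27% to 8.26% of counts in the induced and 3.3% to 3.63% in the control pools. Induction and this library difference cannot be told apart in that comparison. Both groups of Oct4 E7.5 held 29.0 to 51.9 CPM of such models, and all E9.5 pools held 0.634 to 2.02 CPM.

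The promoters of Rarb and Cyp26a1 are shown because both hold the same kind of retinoic acid response element, while at E7.5 Rarb was lower and Cyp26a1 higher in induced pools of both lines. In edgeR the Cyp26a1 rise passed in Nanog E7.5 embryos (adjusted p 0.0287) but not in Oct4 E7.5 embryos (0.056). The Nanog call was lost on leaving out either control. A response element is a pair of half-sites bound by a Rar and Rxr pair. The search took half-sites NGTTCA or NGGTCA, 2 in direct repeat with a spacer of 5 bases (DR5), on both strands. The windows are RefSeq sequences of GRCm38.p6, from 250 bases before to 50 bases after a transcript start, and their NCBIM37 positions come from an exact match to that genome. Written 5′ to 3′ on the strand of the gene, with the DR5 in capitals, the Rarb window is chr14:17407941-17408240 (minus strand) and the Cyp26a1 window is chr19:37772048-37772347 (plus strand).
Rarb: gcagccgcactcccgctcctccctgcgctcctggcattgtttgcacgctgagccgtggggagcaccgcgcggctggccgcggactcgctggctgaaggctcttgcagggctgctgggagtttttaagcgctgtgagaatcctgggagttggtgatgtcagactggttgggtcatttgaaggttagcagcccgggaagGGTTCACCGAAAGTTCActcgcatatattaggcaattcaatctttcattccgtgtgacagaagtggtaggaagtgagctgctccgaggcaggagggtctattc
Cyp26a1: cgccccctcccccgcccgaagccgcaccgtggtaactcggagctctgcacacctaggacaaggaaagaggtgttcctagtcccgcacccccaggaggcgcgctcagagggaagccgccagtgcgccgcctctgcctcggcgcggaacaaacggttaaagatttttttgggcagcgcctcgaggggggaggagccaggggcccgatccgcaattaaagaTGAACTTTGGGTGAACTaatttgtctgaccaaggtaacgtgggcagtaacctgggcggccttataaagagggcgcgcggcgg
The sites themselves, with the half-sites in capitals and each read on the strand that carries the direct repeat, are as follows.
Rarb: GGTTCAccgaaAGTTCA
Cyp26a1: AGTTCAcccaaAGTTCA

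The Rarb site (chr14:17408027-17408043) lies on the strand of the gene, 53 to 37 bases before the start. The Rarb window starts inside the gene as annotated, at chr14:17263356-17651381, and so belongs to a start downstream of the gene's annotated 5′ end. The Cyp26a1 site (chr19:37772266-37772282) lies on the opposite strand to the gene, 32 to 16 bases before the start. The second half-site is the same in both. Of 32851 windows in the table, 81 hold a DR5 (0.247%). The genes described here had 12 windows from 8 genes, and 2 of these windows hold one. No window of the 8 genes holds such a repeat with a spacer of 1 or 2 bases, beside 0.402% and 0.396% of all windows. Of the other pathway and responsive genes described further on, 26 had windows, 41 in all, and none of these holds a DR5. With shares this low over all windows, finding none in so few says little. A match is a description of the letters and was not tested for binding.

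The synthesis gene Aldh1a2 was far lower in induced than in control embryos of both lines at E7.5. Its level was 6.99, 5.36 and 6.91 CPM in induced Oct4 E7.5 pools, against 138, 77.2 and 138 CPM in control Oct4 E7.5 pools. The induced pools lay close together and far below every control pool, and the second control pool was the lowest control. This gave a log2 fold change of -4.16 ± 0.24 (SE), with an adjusted p of 0.000181. The level was 8.25, 16.4 and 23.0 CPM in induced Nanog E7.5 pools, against 147 and 130 CPM in their controls. The induced Nanog pools differed more among themselves, and none overlapped the controls. The log2 fold change was -3.10 ± 0.44 (SE), with an adjusted p of 0.0383. That call was lost without control 2 (adjusted p 0.247), without control 3 (0.205), without induced pool 3 (0.109) and with no filter on low counts (0.0718). The difference between the responses of the Oct4 and Nanog lines at E7.5 was -1.07 ± 0.50 (SE, log2), with an adjusted p of 0.521. Aldh1a2 marks mesoderm, and fewer cells of a type and less RNA per cell cannot be told apart in pools of whole embryos.

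At E9.5 Aldh1a2 was higher in induced Oct4 embryos. It was at 67.8, 74.2 and 78.5 CPM in induced Oct4 E9.5 pools, against 51.6, 48.5 and 53.7 CPM in control Oct4 E9.5 pools. Each induced pool exceeded each control pool, and the log2 fold change was 0.51 ± 0.07 (SE) with an adjusted p of 5.81e-05. Nanog E9.5 embryos had 62.2, 51.1 and 53.8 CPM in induced pools, against 57.6 and 52.0 CPM in control pools. These groups overlapped (log2 fold change -0.01 ± 0.09, SE, adjusted p 0.922). The Oct4 response exceeded the Nanog response at E9.5 by 0.53 ± 0.11 (SE, log2, adjusted p 0.00349). In 1 model over all 22 libraries the Oct4 E9.5 change had an adjusted p of 0.432 and the difference between lines one of 0.515.

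Aldh1a3, the dehydrogenase of the eye and nasal region in the mouse embryo, was low at E7.5 in every group, at 1.66 to 3.48 CPM over the 11 pools. It passed the test in neither line at E7.5 (log2 fold change 0.29 ± 0.22, adjusted p 0.599 in Oct4, and 0.48 ± 0.31, adjusted p 0.396 in Nanog, SE). At E9.5 it fell in both lines. Its level was 9.4, 6.46 and 5.03 CPM in induced Oct4 E9.5 pools, against 23.4, 30.4 and 29.0 CPM in control Oct4 E9.5 pools. For the Nanog line at E9.5, induced pools were at 18.2, 22.4 and 21.4 CPM, against 28.8 and 35.3 CPM for control pools. No induced pool reached a control pool in either line. This gave a log2 fold change of -1.96 ± 0.20 (SE, adjusted p 0.000228) in Oct4 and -0.66 ± 0.12 (SE, adjusted p 0.000985) in Nanog. The Oct4 response lay below the Nanog response by a log2 difference of -1.29 ± 0.26 (SE, adjusted p 0.00653). With the controls of both lines, the Nanog change had an adjusted p of 0.0848.

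**Figure D1:**
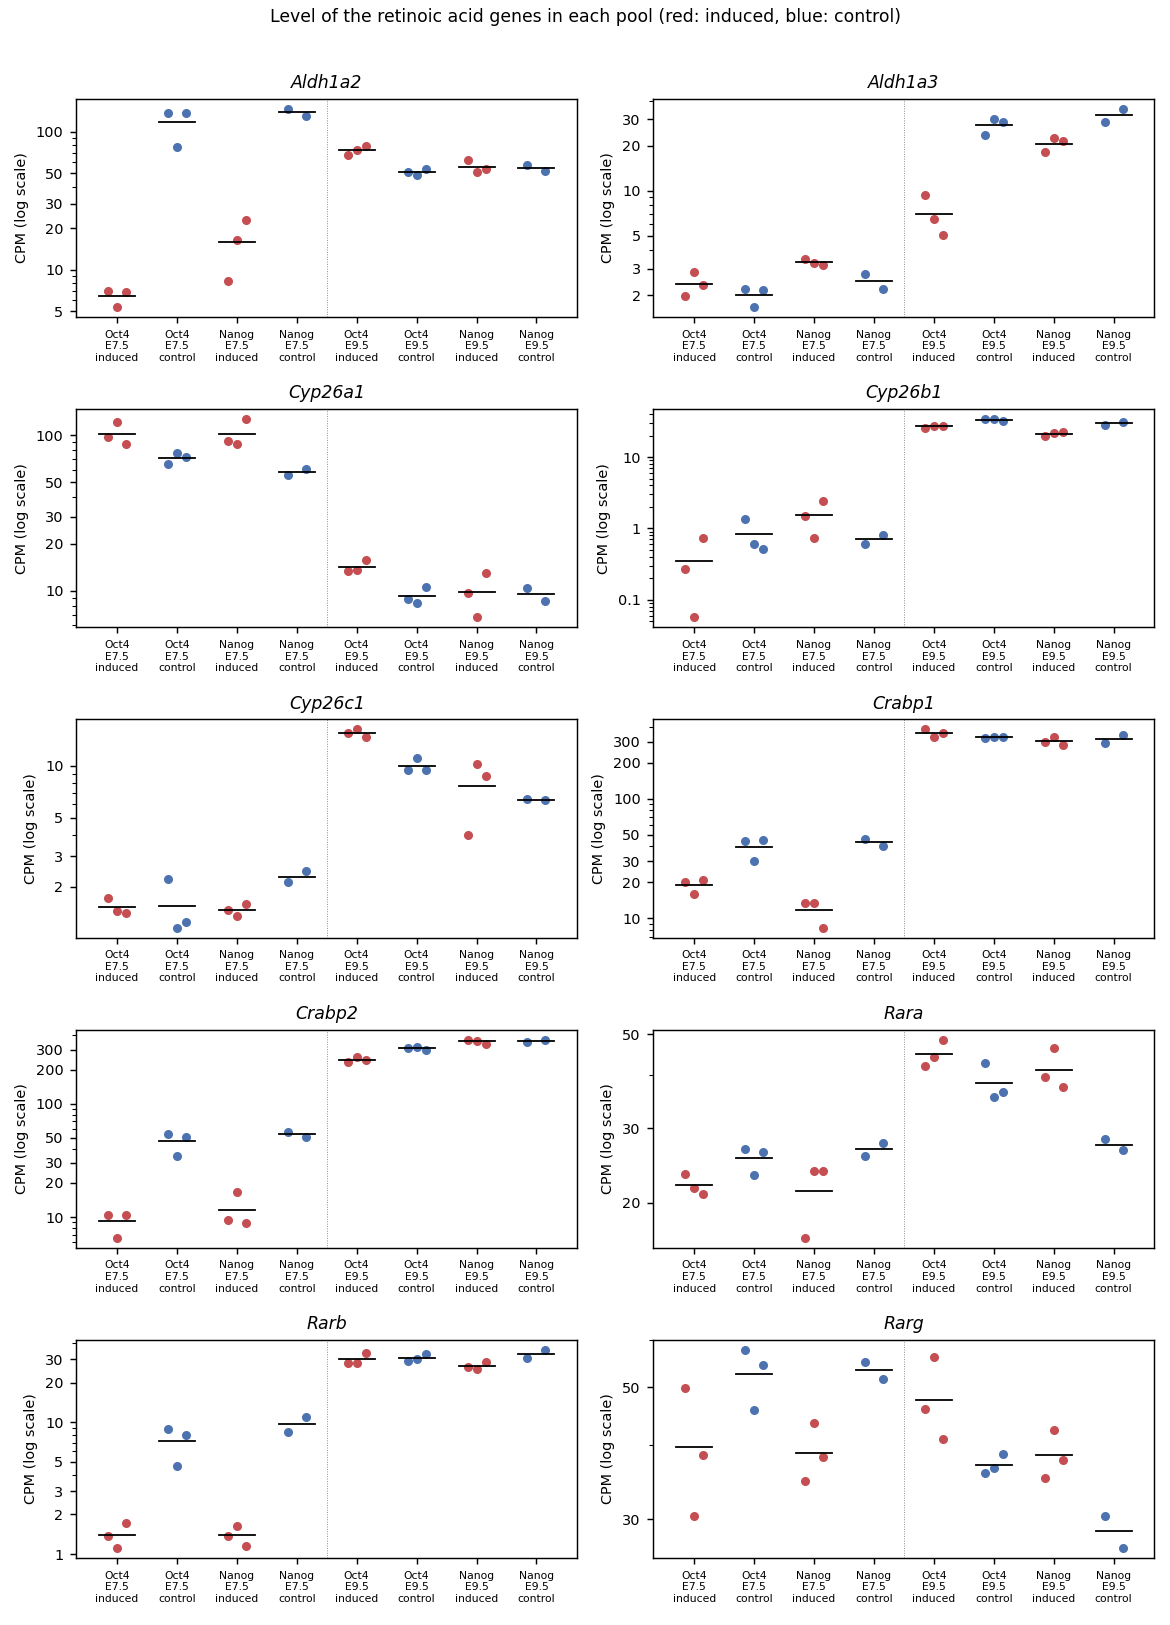
Level of each gene in each pool, in CPM on a log axis, with 1 panel per gene. Red points are induced pools, blue points are control pools and the bar is the group mean; Aldh1a2 at E7.5 runs from 5.36 to 23.0 CPM in induced pools and from 77.2 to 147 CPM in control pools.

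Cyp26a1, the breakdown enzyme of the early embryo, was higher in induced embryos at E7.5. It was at 97.1, 122 and 87.4 CPM in induced Oct4 E7.5 pools, against 65.1, 77.1 and 72.5 CPM in control Oct4 E7.5 pools. The groups did not overlap, but the test was not passed (log2 fold change 0.55 ± 0.14, SE, adjusted p 0.056). It was passed with DESeq2 (adjusted p 0.00522), with no filter (0.0359) and in 1 model over all libraries (0.0254). Induced Nanog E7.5 pools held 92.2, 87.6 and 127 CPM, against 55.4 and 61.0 CPM in control Nanog E7.5 pools. It rose there by a log2 fold change of 0.85 ± 0.17 (SE, adjusted p 0.0287), and the induced pools lay above both controls. The call was lost without control 2 (adjusted p 0.212) or control 3 (0.15).

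Cyp26a1 was lower in E9.5 pools than in E7.5 pools of every group. At E9.5 it rose in Oct4, at 13.4, 13.6 and 15.7 CPM in induced pools, against 8.92, 8.4 and 10.6 CPM in control pools. All induced pools were above all controls (log2 fold change 0.62 ± 0.14, SE, adjusted p 0.00688). The call was lost without control 2 (adjusted p 0.0603) or induced pool 5 (0.0574). In Nanog E9.5 pools it was at 9.64, 6.75 and 13.0 CPM in induced and 10.5 and 8.62 CPM in control pools. Those groups overlapped (log2 fold change -0.01 ± 0.21, SE, adjusted p 0.978), and the difference between the Oct4 and Nanog responses was 0.63 ± 0.26 (SE, log2, adjusted p 0.105).

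Cyp26b1, the breakdown enzyme of the hindbrain and later of the limb, was near the depth limit at E7.5, at 0.0567 to 2.44 CPM. Its groups overlapped at E7.5 in both lines (log2 fold change -1.27 ± 0.66, adjusted p 0.384 in Oct4, and 1.01 ± 0.66, adjusted p 0.396 in Nanog, SE). At E9.5 it fell in both lines. It was at 25.5, 27.6 and 27.5 CPM in induced Oct4 E9.5 pools, against 33.8, 34.1 and 32.4 CPM in control Oct4 E9.5 pools. The level was 19.7, 21.8 and 22.5 CPM in induced Nanog E9.5 pools, against 28.2 and 31.5 CPM in their controls. All induced pools were below all controls of their line. The log2 fold change was -0.34 ± 0.07 (SE, adjusted p 0.00726) in Oct4 and -0.51 ± 0.11 (SE, adjusted p 0.00296) in Nanog. The Oct4 call was lost with DESeq2 (adjusted p 0.0935), without control 2 (0.0595) and without induced pool 3 (0.0673).

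Cyp26c1, which acts in the hindbrain beside Cyp26b1, was at 1.16 to 2.46 CPM at E7.5 and passed the test in neither line (adjusted p 0.968 in Oct4 and 0.362 in Nanog). At E9.5 it rose in Oct4 embryos, at 15.6, 16.3 and 14.7 CPM in induced pools, against 9.48, 11.1 and 9.45 CPM in control pools. The groups did not overlap, and the log2 fold change was 0.60 ± 0.13 (SE, adjusted p 0.00472). So Cyp26a1 and Cyp26c1 were higher and Cyp26b1 lower in the same induced Oct4 pools. In Nanog E9.5 pools Cyp26c1 was at 3.98, 10.3 and 8.74 CPM in induced and 6.41 and 6.38 CPM in control pools. The induced pools lay on both sides of the controls (adjusted p 0.528). Summed markers of hindbrain and neural tube (7 genes) were lower in induced E9.5 pools, at 215 to 233 CPM against 249 to 263 CPM in controls of Oct4, and at 171 to 190 CPM against 205 to 240 CPM in controls of Nanog. Their part in the Cyp26 values was not tested.

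Crabp2, which passes retinoic acid to the receptors, fell at E7.5 in both lines. It was at 10.5, 6.55 and 10.4 CPM in induced Oct4 E7.5 pools, against 54.5, 34.6 and 50.9 CPM in control Oct4 E7.5 pools. Nanog E7.5 embryos had 9.44, 16.7 and 8.77 CPM in induced pools, against 56.6 and 51.0 CPM in control pools. No induced pool overlapped a control pool of its line. This gave a log2 fold change of -2.32 ± 0.21 (SE, adjusted p 0.000466) in Oct4 and -2.10 ± 0.29 (SE, adjusted p 0.013) in Nanog. The Nanog call was lost without control 2 (adjusted p 0.0985), without control 3 (0.0868) and with no filter (0.0517). At E9.5 Crabp2 fell in Oct4 embryos, at 233, 257 and 244 CPM in induced pools, against 313, 315 and 299 CPM in control pools. The groups did not overlap and the log2 fold change was -0.35 ± 0.04 (SE, adjusted p 2.39e-05). In Nanog E9.5 pools it was at 339 to 368 CPM in induced and 347 to 368 CPM in control pools (adjusted p 0.628). The Oct4 response at E9.5 lay below the Nanog response by a log2 difference of -0.30 ± 0.07 (SE, adjusted p 0.0077), a call lost without Nanog control 2 (0.0739).

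Crabp1, which binds retinoic acid in the cytoplasm, fell at E7.5 in both lines as well. It was at 20.2, 15.9 and 21.0 CPM in induced Oct4 E7.5 pools, against 44.3, 30.1 and 45.2 CPM in control Oct4 E7.5 pools. For the Nanog line at E7.5, induced pools were at 13.4, 13.3 and 8.34 CPM, against 46.1 and 40.4 CPM for control pools. The groups did not overlap in either line. The log2 fold change was -1.03 ± 0.16 (SE, adjusted p 0.00558) in Oct4 and -1.81 ± 0.19 (SE, adjusted p 0.0018) in Nanog, and the difference between them, 0.76 ± 0.26 (SE), had an adjusted p of 0.347. At E9.5 Crabp1 lay at 283 to 383 CPM in all 11 pools and passed the test in neither line (adjusted p 0.153 in Oct4 and 0.354 in Nanog).

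Among the receptors, Rarb fell at E7.5 in both lines. Rarb, whose promoter with its DR5 is shown above, is a textbook target of retinoic acid as well as a receptor for it. It was at 1.37, 1.11 and 1.73 CPM in induced Oct4 E7.5 pools, against 8.87, 4.67 and 8.06 CPM in control Oct4 E7.5 pools. Induced Nanog E7.5 pools held 1.38, 1.62 and 1.15 CPM, against 8.5 and 10.9 CPM in control Nanog E7.5 pools. Every induced pool was below every control pool, with the second Oct4 control again the lowest control. This gave a log2 fold change of -2.33 ± 0.27 (SE, adjusted p 0.00164) in Oct4 and -2.71 ± 0.29 (SE, adjusted p 0.00138) in Nanog. Both calls held in every alternative that was run. Cyp26a1, whose promoter holds the other DR5, was higher in the same induced pools, a change called in Nanog but not in Oct4 embryos.

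At E9.5 Rarb was at 28.2, 28.2 and 33.6 CPM in induced Oct4 pools, against 29.3, 30.2 and 33.0 CPM in control Oct4 pools, which overlapped (adjusted p 0.835). The level was 26.2, 25.4 and 28.4 CPM in induced Nanog E9.5 pools, against 30.9 and 35.4 CPM in their controls. The induced Nanog pools were all lower (log2 fold change -0.35 ± 0.10, SE, adjusted p 0.0188). That call was lost with controls of both lines (adjusted p 0.186), in 1 model over all libraries (0.206) and with DESeq2 (0.0823). It was also lost without induced pool 2 (0.0528) and without control 3 (log2 fold change -0.25, a fit with 1 control).

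Rara and Rarg, the widely expressed receptors, differed less. At E7.5 neither passed the test in either line, with log2 fold changes of -0.41 to -0.18 and adjusted p-values of 0.0843 to 0.391. Rarg passed as lower in Nanog E7.5 embryos with no filter (adjusted p 0.0419), with controls of both lines (0.0133) and without induced pool 3 (0.042). In Oct4 E7.5 embryos it passed without induced pool 1 (adjusted p 0.0296). At E9.5 Rarg was at 45.9, 56.2 and 40.9 CPM in induced Oct4 pools, against 35.9, 36.6 and 38.6 CPM in control Oct4 pools. Nanog E9.5 embryos had 35.2, 42.4 and 37.7 CPM in induced pools, against 30.4 and 26.8 CPM in control pools. Rarg was thus higher in all induced pools of each line (log2 fold change 0.33 ± 0.09, adjusted p 0.0424 in Oct4, and 0.40 ± 0.10, adjusted p 0.00937 in Nanog, SE). The Oct4 call was lost on leaving out any of 5 of the 6 pools, with adjusted p-values of 0.057 to 0.162, and with DESeq2 (0.0648). The Nanog call was lost with controls of both lines (log2 fold change 0.19, adjusted p 0.439) and in 1 model over all libraries (0.129). It was also lost without control 3 (log2 fold change 0.30), a fit with 1 control. Rara rose in Nanog E9.5 embryos, at 39.6, 46.3 and 37.5 CPM in induced pools, against 28.2 and 26.6 CPM in control pools. Those groups stood well apart (log2 fold change 0.56 ± 0.10, SE, adjusted p 0.000995), but with the controls of both lines the adjusted p was 0.349. In Oct4 E9.5 pools Rara was at 42, 44.1 and 48.6 CPM in induced and 42.8, 35.5 and 36.5 CPM in control pools, which overlapped (adjusted p 0.0851).

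**Figure D2:**
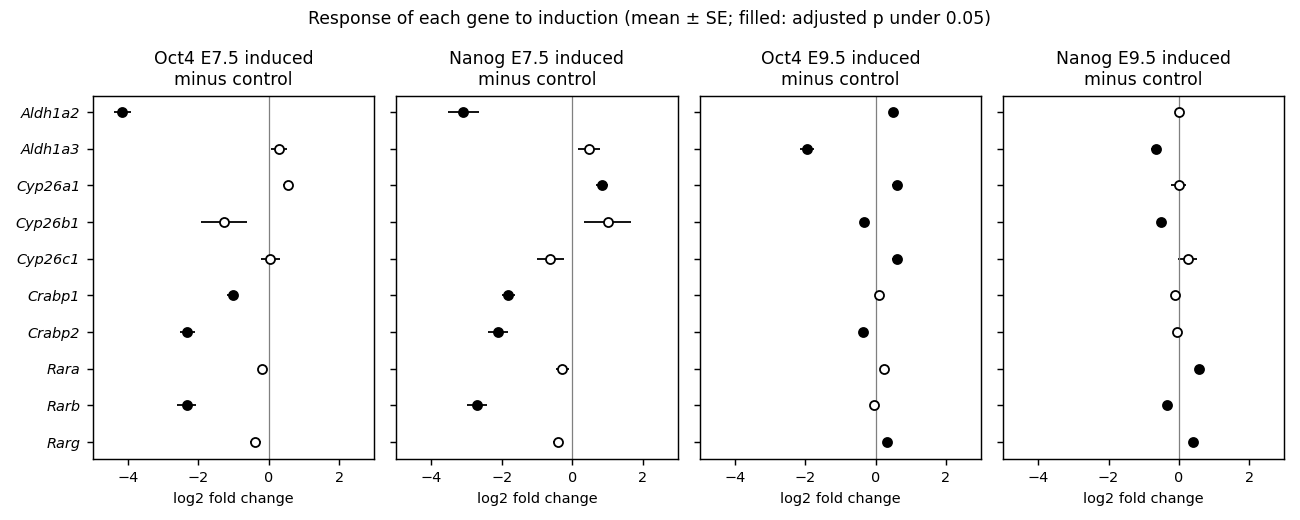
Log2 fold change of induced over control for each gene in the 4 inductions, with its SE as a bar. Aldh1a2, Crabp1, Crabp2 and Rarb lie below 0 in both lines at E7.5, from -4.16 to -1.03, and Aldh1a3 lies below 0 in both lines at E9.5.

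Counted together, 4 of the 10 genes were called in Oct4 E7.5 embryos, all lower, where 6.17% of all genes tested were called and 3.91% were called lower. In Nanog E7.5 embryos 5 were called, 1 higher and 4 lower, where 7.78% of all genes were called, 2.96% higher and 4.82% lower. In Oct4 E9.5 embryos 7 were called, 4 higher and 3 lower, against 9.29% of all genes, 4.69% higher and 4.61% lower. In Nanog E9.5 embryos 5 were called, 2 higher and 3 lower, against 28.4% of all genes, 15.4% higher and 13% lower. The median log2 fold change of the 10 genes was -0.71 in Oct4 E7.5 and -0.52 in Nanog E7.5, beside 0.02 and 0.00 over all genes tested. At E9.5 the median was 0.17 in Oct4 and -0.03 in Nanog, beside 0.00 over all genes in each. All 4 Oct4 E7.5 calls held in every alternative run. In 1 model over all 22 libraries, 1 of the 7 Oct4 E9.5 calls was left (Aldh1a3), and 2 of the 5 Nanog E9.5 calls (Aldh1a3 and Rara).

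The difference between lines was called for none of the 10 genes at E7.5 by edgeR, where 0.204% of all genes were called. At an unadjusted p under 0.05 it held for 1 of them, Crabp1 (unadjusted p 0.0133), and DESeq2 and limma-voom also called 0. At E9.5 it was called for 3 of them, Aldh1a2, Aldh1a3 and Crabp2, against 13.5% of all genes. Of these 3 differences (Oct4 minus Nanog), 1 was positive and 2 were negative, beside 5.57% and 7.92% of all genes. The difference between stages was called for 5 genes in the Oct4 line, against 6.69% of all genes, and for 7 in the Nanog line, against 12.8%. The Oct4 differences were 4 positive and 1 negative (4.84% and 1.85% of all genes), and the Nanog ones 6 positive and 1 negative (8.02% and 4.79%). Aldh1a2 had the widest gap, with its E9.5 response above its E7.5 response by 4.67 ± 0.27 in Oct4 (SE, log2, adjusted p 2.21e-06) and by 3.08 ± 0.45 in Nanog (SE, log2, adjusted p 0.00682). Rarb followed with 2.29 ± 0.29 in Oct4 (SE, log2, adjusted p 0.000169) and 2.33 ± 0.24 in Nanog (SE, log2, adjusted p 9.43e-05). The doxycycline schedule also differed between stages, so stage and schedule cannot be told apart.

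The ratio of Aldh1a2 to breakdown RNA was far lower in induced than in control pools at E7.5. It was taken as Aldh1a2 over the sum of the 3 Cyp26 genes in CPM per kb of exonic length, and it leaves out Aldh1a3. On the log2 scale it was -4.18, -4.88 and -4.04 in induced Oct4 E7.5 pools, against 0.67, -0.38 and 0.55 in control Oct4 E7.5 pools. In the Nanog line it was -3.87, -2.79 and -2.84 in induced E7.5 pools, against 1 and 0.68 in control E7.5 pools. Cyp26 RNA per kb thus exceeded Aldh1a2 RNA by 6.94 to 29.4 times in the 6 induced E7.5 pools. At E9.5 the ratio was 0.45 to 0.58 in induced and 0.21 to 0.36 in control Oct4 pools, and 0.46 to 1.20 in induced and 0.58 to 0.69 in control Nanog pools. Without division by length it was -4.53 to -2.45 in induced and -0.03 to 1.34 in control E7.5 pools. At E9.5 it was then 0.32 to 0.44 in induced and -0.15 to 0.04 in control Oct4 pools. Aldh1a3 held on average 4.5% of the Aldh1a2 and Aldh1a3 RNA per kb in induced and 20.9% in control Oct4 E9.5 pools. The higher E9.5 ratio in induced Oct4 pools is therefore one of Aldh1a2 alone and cannot be read as one of both dehydrogenases. A ratio with Aldh1a3 included was not computed. The ratio is a description and has no test, and RNA levels are not enzyme activity.

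**Figure D3:**
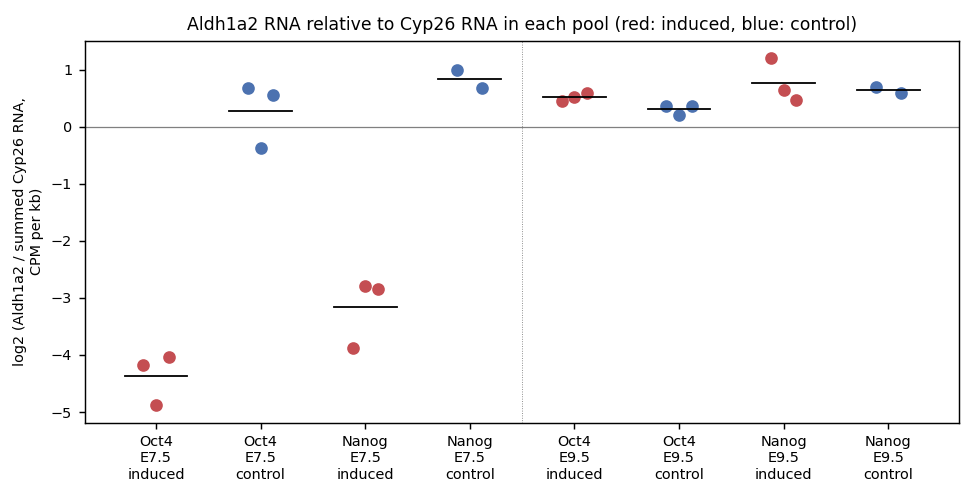
Log2 ratio of Aldh1a2 to the sum of Cyp26a1, Cyp26b1 and Cyp26c1 (CPM per kb) in each pool, red for induced and blue for control. The 6 induced E7.5 pools sit at -4.88 to -2.79 and the 5 control E7.5 pools at -0.38 to 1.

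Within families, compared in CPM per kb, Cyp26a1 made up nearly all Cyp26 RNA at E7.5, with group means of 95.7% to 98.3%. At E9.5 its mean share was 28.8% to 38.1%, and the 3 genes shared the RNA. The E9.5 shares depended on the division by length. Without it, mean shares at E9.5 were 47.4% to 65.1% for Cyp26b1 and 17.7% to 25.2% for Cyp26a1. Cyp26b1 held 25.6% ± 0.442 in induced and 39.8% ± 1.55 in control Oct4 E9.5 pools (SD, n = 3 each). Among the receptors, Rarb held 2.9% ± 0.66 in induced and 10.4% ± 2.11 in control Oct4 E7.5 pools (SD, n = 3 each). Its Nanog share was 2.91% ± 0.505 in induced (SD, n = 3) and 13.5% ± 2.25 in control E7.5 pools (SD, n = 2). Aldh1a3 held 4.5% ± 1.7 of the Aldh1a2 and Aldh1a3 RNA in induced and 20.9% ± 2.67 in control Oct4 E9.5 pools (SD, n = 3 each), and 15.5% ± 2.66 in induced (SD, n = 3) and 22.4% ± 3.74 in control Nanog E9.5 pools (SD, n = 2). At E7.5 its share went the other way, at 15.7% ± 4.41 in induced and 0.86% ± 0.161 in control Oct4 pools (SD, n = 3 each). It was 10.8% ± 5.63 in induced (SD, n = 3) and 0.86% ± 0.0681 in control Nanog E7.5 pools (SD, n = 2). These shares follow from the levels above and have no test of their own.

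**Figure D4:**
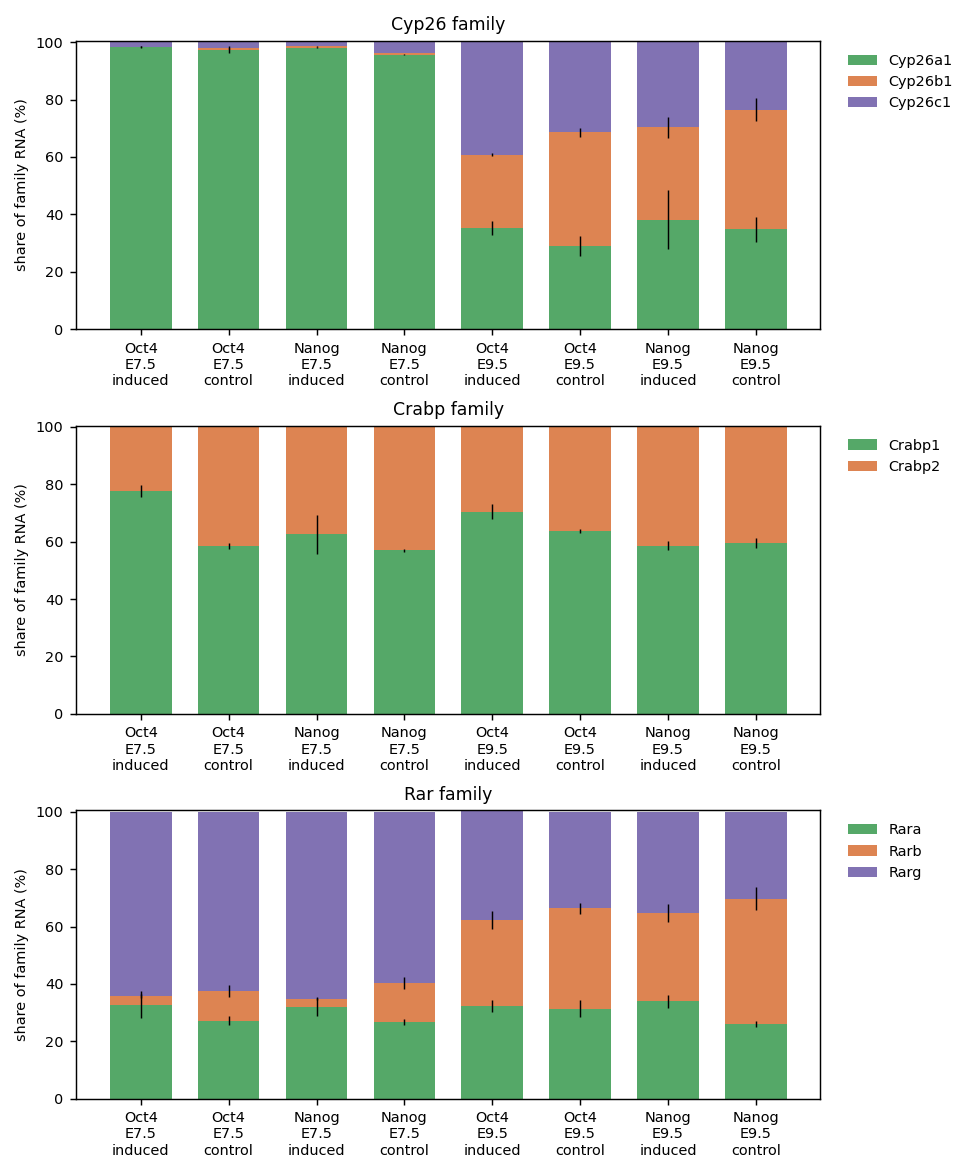
Mean share of each gene in the summed CPM per kb of its family, in percent, for the 8 groups, with the SD over pools as black lines. Cyp26a1 fills 95.7% or more of the Cyp26 bar at E7.5 and 38.1% or less at E9.5, and Rarb is under 3% of the Rar bar in both induced E7.5 groups.

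In embryos without doxycycline the genes changed with stage. All 10 were called between E9.5 and E7.5 controls of the Oct4 line, 7 higher and 3 lower at E9.5, where 73.5% of all genes were called, 36.5% higher and 37.1% lower. Of the same genes 9 were called in the Nanog line, 6 higher and 3 lower, against 63.8% of all genes, 31.8% higher and 32% lower. Aldh1a2, Cyp26a1 and Rarg were lower at E9.5 in both lines. Cyp26a1 averaged 9.31 ± 1.16 CPM in E9.5 and 71.6 ± 6.01 CPM in E7.5 controls of the Oct4 line (SD, n = 3 each), a log2 fold change of -3.16 ± 0.11 (SE, adjusted p 1.36e-09). Cyp26b1 averaged 33.4 ± 0.91 CPM in E9.5 and 0.828 ± 0.462 CPM in E7.5 controls of that line (SD, n = 3 each), a log2 fold change of 5.20 ± 0.25 (SE, adjusted p 1.26e-07). Crabp1 averaged 330 ± 3.06 CPM in E9.5 and 39.9 ± 8.44 CPM in E7.5 controls of that line (SD, n = 3 each). Rara was the gene not called in the Nanog line (log2 fold change -0.03 ± 0.10, SE, adjusted p 0.812). The short gene models named above were low in all E9.5 and high in all E7.5 control libraries, so stage and kind of library cannot be told apart here. The tissue in the pools differed with stage as well. The 10 visceral endoderm and yolk sac markers summed to 3690 to 4621 CPM in E7.5 and 116 to 125 CPM in E9.5 Oct4 controls. In Nanog controls they summed to 3210 to 3703 CPM at E7.5 and 102 to 124 CPM at E9.5. The part of this difference in the stage changes was not tested.

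Of 19 other genes of the retinoid pathway, 1 to 5 were called in each induction, beside shares of all genes called of 6.17% in Oct4 E7.5, 7.78% in Nanog E7.5, 9.29% in Oct4 E9.5 and 28.4% in Nanog E9.5. In Oct4 E7.5 embryos 1 of 17 tested was called, Rxrg, a partner of the Rar receptors, at 7.13 ± 1.01 CPM in induced and 4.28 ± 0.575 CPM in control pools (SD, n = 3 each, adjusted p 0.0219). In Nanog E7.5 embryos 2 of 16 were called, both lower: the retinol carrier Rbp4, at 140 ± 37.3 CPM in induced (SD, n = 3) and 343 ± 13.2 CPM in control pools (SD, n = 2), and the coactivator Ncoa3, with a log2 fold change of -0.41 ± 0.10 (SE). Rbp4 is also made by visceral endoderm, whose 10 markers summed to 1306 to 2007 CPM in induced and 3210 to 3703 CPM in control Nanog E7.5 pools, and their part in the result was not tested. In Oct4 E9.5 embryos 3 of 17 were called: Rbp4 was higher (log2 fold change 0.95 ± 0.23, SE), and the fatty acid and retinoic acid carrier Fabp5 (-0.23 ± 0.05) and the corepressor Nrip1 (-0.20 ± 0.06) were lower. In Nanog E9.5 embryos 5 of 16 were called, all higher, among them the nuclear receptor Ppard (log2 fold change 0.48 ± 0.15, SE) and the receptors Rxrb (0.40 ± 0.09) and Rxra (0.21 ± 0.07). The medians of this list were -0.13, -0.22, 0.02 and 0.10 in Oct4 E7.5, Nanog E7.5, Oct4 E9.5 and Nanog E9.5, beside 0.00 to 0.02 over all genes.

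Of 19 genes known to respond to retinoic acid in some embryonic tissue, many were lower at E7.5. In Oct4 E7.5 embryos 10 of 16 tested fell, where 3.91% of all genes were called lower, with a median log2 fold change of -1.19 beside 0.02 over all genes. Those with the lowest p included Tbx1 (-3.56 ± 0.31, SE), Cdx1 (-3.63 ± 0.30) and Hoxd4 (-3.18 ± 0.41), all transcription factors of axial or pharyngeal patterning. In Nanog E7.5 embryos 9 of 13 fell, where 4.82% of all genes were called lower, with a median of -1.72 beside 0.00, and the 4 with the lowest p were Zfp703 (-1.72 ± 0.13, SE), Hoxb4 (-2.80 ± 0.31), Meis1 (-1.54 ± 0.17) and Tbx1 (-3.46 ± 0.52). In Oct4 E9.5 embryos 5 of 18 rose and 3 fell, where 4.69% of all genes were called higher and 4.61% lower. Cdx1 was at 24.0 ± 3.7 CPM in induced and 3.82 ± 0.613 CPM in control pools (SD, n = 3 each), and Hoxb1, Zfp703 and Meis2 rose by 0.99, 0.41 and 0.25 on the log2 scale. Olig2, a motor neuron factor, was at 2.37 ± 0.355 CPM in induced and 14.5 ± 0.306 CPM in control Oct4 E9.5 pools (SD, n = 3 each), and Neurog2 and Nr2f1 fell by 1.16 and 0.20. In Nanog E9.5 embryos 3 of 18 rose, Zfp703 (0.79 ± 0.09, SE), Fgf8 (0.61 ± 0.21) and Hoxd4 (0.48 ± 0.10), and Pax6 fell (-0.72 ± 0.09). With 15.4% of all genes called higher and 13% lower there, these counts are near or below the background. The list was not split by whether retinoic acid raises or lowers a gene, so a fall is not by itself a loss of response. Many of these genes also respond to other signals of the embryo.

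Summed markers of the mesoderm, where Aldh1a2 is made, were lower in induced E7.5 pools, while single markers went both ways. The 13 paraxial mesoderm and somite markers summed to 63.7 to 76.6 CPM in induced and 88.9 to 113 CPM in control Oct4 E7.5 pools. They summed to 35.1 to 45.3 CPM in induced Nanog E7.5 pools and 106 to 115 CPM in control Nanog E7.5 pools, with Meox2 at 0 in the controls. In Oct4 E7.5 embryos 4 of 10 tested fell and 2 rose (Mesp2 and Lfng), where 6.17% of all genes were called and 3.91% were called lower. In Nanog E7.5 embryos 4 of 8 fell and 1 rose (Mesp2), where 4.82% of all genes were called lower and 2.96% higher. The 7 heart and lateral mesoderm markers summed to 175 to 221 CPM in induced and 260 to 267 CPM in control Oct4 E7.5 pools. Of these 7, 4 fell and 1 rose in Oct4 E7.5 embryos, the atrial myosin gene Myl7 (log2 fold change 0.89 ± 0.11, SE, adjusted p 0.00222). They summed to 200 to 273 CPM in induced and 276 to 286 CPM in control Nanog E7.5 pools, where 2 fell and 1 rose, Wt1 (1.66 ± 0.36, SE, adjusted p 0.0384). Hand1, the gene with the highest level of the 7 in the Nanog E7.5 pools, averaged 117 ± 38.9 CPM in induced (SD, n = 3) and 151 ± 11.4 CPM in control pools (SD, n = 2) and was not called (adjusted p 0.607). These markers were named after their values were seen. The part of these differences in the Aldh1a2, Crabp and Rarb values was not tested.

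Markers of tissues around the embryo are given for both lines at E7.5. The 10 visceral endoderm and yolk sac markers summed to 3343 to 3844 CPM in induced and 3690 to 4621 CPM in control Oct4 E7.5 pools, which overlapped. In Oct4 E7.5 embryos 1 of the 10 fell (Lrp2), where 3.91% of all genes were called lower. Their Nanog E7.5 sums were 1306 to 2007 CPM in induced and 3210 to 3703 CPM in control pools. There 6 of the 10 fell, where 4.82% of all genes were called lower. The 8 trophoblast markers summed to 404 to 537 CPM in induced and 609 to 708 CPM in control Oct4 E7.5 pools. For Nanog E7.5 the sums overlapped, at 492 to 692 CPM in induced and 560 to 644 CPM in control pools. Of 6 tested, 1 fell in Oct4 E7.5 embryos (Cdx2), and 1 fell (Cdx2) and 1 rose (Elf5) in Nanog E7.5 embryos. The 12 maternal decidua and blood markers summed to 325 to 531 CPM in induced and 213 to 502 CPM in control Oct4 E7.5 pools, and to 177 to 717 CPM in induced and 655 to 659 CPM in control Nanog E7.5 pools. Both pairs of ranges overlapped. Of 12 tested in Oct4 E7.5 embryos, 2 rose and 0 fell, where 6.17% of all genes tested were called. Prf1 averaged 1.93 ± 0.361 CPM in induced and 0.77 ± 0.158 CPM in control pools (SD, n = 3 each). S100a9 averaged 1.12 ± 0.164 CPM in induced and 0.407 ± 0.186 CPM in control pools (SD, n = 3 each). Of 10 tested in Nanog E7.5 embryos, 0 were called. The part of these sums in the results was not tested.

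The genes whose 8 group means were most like those of Aldh1a2, Cyp26a1 and Rarb were found among 11458 genes, by the root mean square difference of centred log2 levels. For Aldh1a2 they included Tbx4 (0.52) and Itga2b (0.59). For Cyp26a1 they were Tcfl5 (0.08), Epha1 (0.13) and Jph4 (0.18). For Rarb they were Hoxb4 (0.18), Popdc2 (0.20) and Vash1 (0.28). A smaller value is a closer likeness, so Cyp26a1 had closer neighbours than Aldh1a2. Hoxb4, for example, averaged 1.22 CPM in induced and 6.27 CPM in control Oct4 E7.5 pools, and 26.7 CPM in induced and 21.8 CPM in control Oct4 E9.5 pools. Among the 10 genes themselves, Crabp1 and Crabp2 were the closest pair (0.44), and Crabp2 and Rarb came next (0.47) together with Rara and Rarg (0.47).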

How the data were processed

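The authors deposited expected counts from RSEM for 22 libraries of total RNA from pooled whole mouse embryos. The submitters' processing notes name build NCBIM37 and the tools cutadapt, RSEM (version 1.17), limma and Picard; the values are not normalized. RSEM divides reads that fit several genes, and strand is not stated. Expected counts were rounded and tested with edgeR 4.0.16 in R 4.3.3 (TMM scaling, filterByExpr, robust quasi-likelihood F test, two-sided), fitted on the whole table for each comparison, with Benjamini-Hochberg adjustment over all genes tested. A gene was called at an adjusted p under 0.05. Differences between lines or stages were interaction contrasts over 4 groups. CPM is the count divided by the library total, times 1000000, and CPM per kb divides it by the exonic length in GENCODE vM1. Alternatives were DESeq2 1.42.0, limma 3.58.1 (voom), DESeq2 size factors in edgeR, no filter, unrounded counts, 1 model over all libraries, controls of both lines, a replicate block and leaving out each library. The scripts were tested on simulated counts, in which the interaction contrast missed more of the smaller changes than the inductions did. A limit first set on that recovery was replaced after its result was seen by limits on large changes, false calls and error in the fold.

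The genes, lists and tests were chosen with earlier results of these data known. Named genes are all 10, Pou5f1 and Nanog, the called genes of the other lists (the 4 with the lowest p where over 5 were called in a direction), and the 3 genes most like each of Aldh1a2, Cyp26a1 and Rarb, among those averaging 5 CPM or more in any group, on log2(CPM + 0.5). Of the responsive genes 19 of 20 were matched to 1 gene ID, and of the heart markers 7 of 8. Some genes that this rule names are not reported here. No 2 libraries of the same group were alike within sampling noise, and libraries of different groups were not compared in this way.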

Additional observations from a re-analysis of the deposited data

Results flagged for a closer look

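In each case below the response differed between lines or between stages by an interaction test in edgeR, and values are log2 differences. At E9.5 the Oct4 response differed from the Nanog response by 0.53 for Aldh1a2, by -1.29 for Aldh1a3 and by -0.30 for Crabp2. In the Oct4 line the E9.5 response differed from the E7.5 response by 4.67 for Aldh1a2, -2.26 for Aldh1a3, 1.14 for Crabp1, 1.97 for Crabp2 and 2.29 for Rarb. In the Nanog line it differed by 3.08 for Aldh1a2, -1.16 for Aldh1a3, 1.67 for Crabp1, 1.99 for Crabp2, 0.82 for Rara, 2.33 for Rarb and 0.79 for Rarg. The 5 Oct4 stage differences held in every alternative run, as did those of Aldh1a2, Crabp1, Crabp2 and Rarb in the Nanog line. In the Nanog line the Aldh1a3 difference was lost with limma-voom (adjusted p 0.0577) and without E7.5 control 3 (0.0925) or E9.5 control 3 (0.073). The Rarg difference there was lost without E7.5 control 2 (adjusted p 0.0552) or E9.5 control 3 (0.0694), and the Rara difference on leaving out any of 5 libraries (0.0763 to 0.122). Stage, doxycycline schedule and, in the Nanog line, kind of library cannot be told apart.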

How the results depend on the processing

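Of 1398 values of the 10 genes under alternatives, 1327 kept their side of the threshold, 50 lost a call and 21 gained one, and no called value changed sign. A further 33 sign changes between uncalled values are counted as kept. Without 1 library at a time, the number of genes called ran from 438 to 1101 in Oct4 E7.5 (991 with all), from 161 to 1383 in Nanog E7.5 (1099), from 625 to 1290 in Oct4 E9.5 (1297) and from 1482 to 3487 in Nanog E9.5 (3772). For the difference between lines it ran from 16 to 102 at E7.5 (34) and from 837 to 2178 at E9.5 (1970), and for the Nanog stage difference from 807 to 2376 (1907). Of the 10 genes, 2 to 5 were called in Nanog E7.5, 4 to 7 in Oct4 E9.5, 3 to 5 in Nanog E9.5 and 4 to 8 for the Nanog stage difference. Where such a fit left 1 control, that control was assumed to vary like the induced pools. In 1 model over all 22 libraries, 1638 genes were called in Oct4 E7.5, 2737 in Nanog E7.5, 312 in Oct4 E9.5, 1958 in Nanog E9.5, and 177 and 229 for the difference between lines at E7.5 and E9.5; of the 10 genes, 1 was called in Oct4 E9.5, 2 in Nanog E9.5 and 1 for the difference at E9.5. With DESeq2, 715 genes were called in Oct4 E9.5, 2414 in Nanog E9.5 and 244 for the difference at E7.5. With no filter, 1721 were called in Nanog E7.5 and 56 for the difference at E7.5, for which limma-voom called 19. With controls of both lines, 2939 genes were called in Nanog E7.5, and 138 genes and 1 of the 10 in Nanog E9.5. The causes were not tested.

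With the replicate block, 1287 genes were called in Oct4 E7.5 and 3359 in Nanog E9.5. The shared numbers were not taken as pairs in the main test. Correlations of same-numbered pools were 0.21, 0.25 and 0.06 in Oct4 E7.5 and -0.02 in Nanog E9.5. Each Oct4 E7.5 pool correlated best with its own number, and differently numbered pools there correlated at -0.24 to 0.01. Pool 2 was the lowest for Aldh1a2, Crabp1, Crabp2 and Rarb in both the induced and the control group of Oct4 E7.5. Under the block, Cyp26a1 (adjusted p 0.0129) and Rarg (0.0336) passed in Oct4 E7.5. Depth limits Cyp26b1 most at E7.5: 3 counts are 0.0709 to 0.455 CPM there.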
